A study of Mus musculus with 6 samples.

Results

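The 106 genes described here encode the mitochondrial respiratory chain and its ATP synthase. They are all protein-coding genes of the deposited count table whose symbols name a subunit of complex I (Nduf, mt-Nd), complex II (Sdh), complex III (Uqcr, mt-Cytb), complex IV (Cox4 to Cox8, mt-Co) or ATP synthase (Atp5, mt-Atp). The pattern also takes in the complex I assembly factors named Ndufaf. Of 49671 genes in the table, 106 met it, 93 encoded in the nucleus and 13 in the mitochondrial genome. The pattern itself used no read counts.

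RNA was sequenced from pancreata of C57BL/6J mouse embryos at embryonic day 14.5, as 3 control samples and 3 samples treated with 10 µM AMI-5, a small-molecule inhibitor of protein arginine methyltransferases. Each sample is total RNA and gave 1 library, called control 1 to 3 and AMI-5 1 to 3 below. For growth and treatment the labels point to publications not used here, and nothing in them says whether the 3 libraries in a group have separate litters or cultures behind them. P-values therefore rest on the spread among these libraries alone, which could be technical. The labels give 1 version of a strand-specific library kit for the samples marked A and another for the rest. The control titles carry the mark A and the AMI-5 titles Am, so if only the controls are meant, kit version and treatment cannot be told apart.

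The respiratory chain passes electrons from NADH (complex I) and succinate (complex II) through complex III to oxygen at complex IV. It pumps protons across the inner mitochondrial membrane, and ATP synthase, often counted as complex V, uses the gradient to make ATP. Complexes I, III, IV and V mix subunits from both genomes, while complex II is wholly nuclear encoded. The mitochondrial genome carries 13 of the protein subunits and is transcribed as long transcripts from both strands that are cut into single RNAs, whereas each nuclear subunit has its own gene and promoter.

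Libraries held 12445425 to 13321899 counts in the controls and 22894312 to 24805188 with AMI-5, so precision is lower in the controls. Counts in processed pseudogenes made up 0.371% to 0.405% of the control libraries and 2.91% to 3.15% of the AMI-5 libraries. Counts in 35 digestive enzyme genes of acinar cells, which mark the labelled tissue, made up 6.53% to 8.78% and 15.5% to 18.6%. Levels below are CPM, counts scaled to library size with TMM factors. A log2 change is the log2 fold change, AMI-5 over control, with its standard error (SE), from edgeR's quasi-likelihood test across 17519 tested genes with Benjamini-Hochberg adjustment. In bulk tissue a lower level from fewer cells of a type cannot be told apart from less RNA per cell.

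Of the 106 members, 102 had enough counts to be tested and 4 complex IV isoforms did not. With AMI-5, 24 of the 102 were higher and 52 lower at an adjusted p under 0.05, and 26 did not pass. With GC and length trends over all genes removed the calls were 11 higher and 78 lower. Over all tested genes 27.5% were called higher and 26.6% lower. Without correction for GC and length the members split by genome of origin. Among the 13 mitochondrially encoded members the calls were 12 up and 1 down, and the median log2 change was 1.21. Among the 89 tested nuclear encoded members they were 12 up (13.5%) and 51 down (57.3%), and the median was -0.24, against a median of -0.001 over all tested genes and -0.06 over protein-coding genes. With GC and length trends over all genes removed the nuclear members were 6 up and 72 down with a median of -0.997, and with trends over unique-sequence genes 8 up and 54 down with a median of -0.27. The first of these corrections left the mitochondrially encoded members at 2 up and 5 down in complex I, 1 down in III, 2 up in IV and 1 up in V. By complex, the nuclear medians with the trends over all genes removed were -1.29 for complex I, -1.16 for its assembly factors, -0.14 for II, -1.57 for III, -1.97 for IV and -0.47 for V, so sizes given below for single members hold only without that correction. Groups of libraries did not overlap in CPM for 13 nuclear members that lay above the controls and 55 that lay below, where 31.3% and 30.6% of all tested genes did so.

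**Figure D1:**
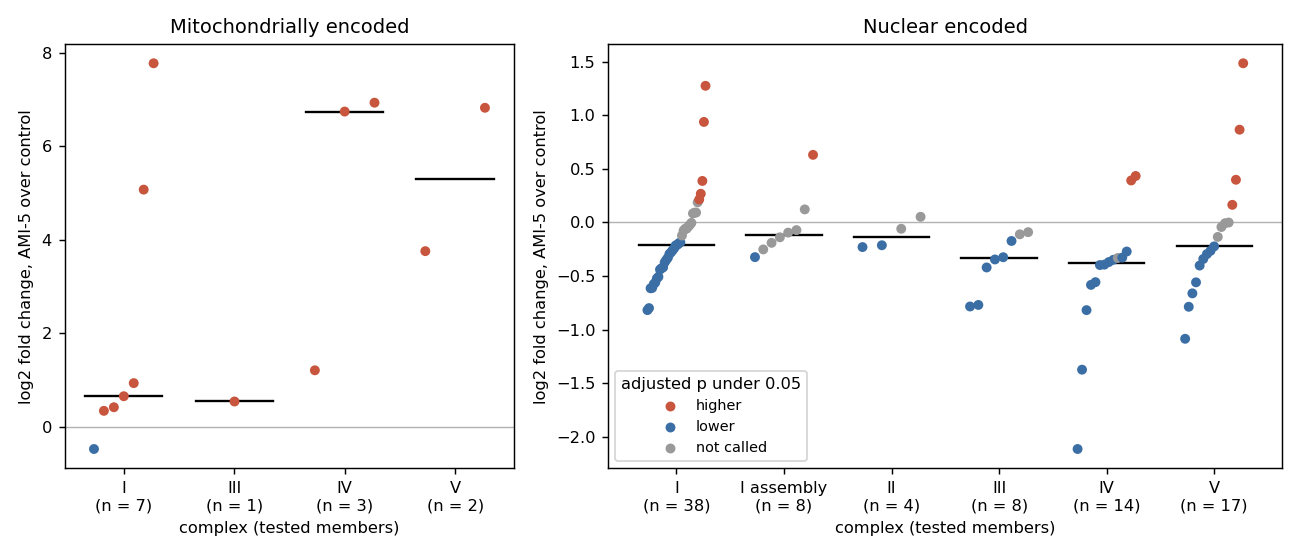
Log2 fold change, AMI-5 over control, of each tested member by complex, mitochondrially encoded on the left and nuclear encoded on the right, with separate vertical scales. Red points passed the test as higher, blue as lower and grey did not pass, and the black line is the median. Nuclear encoded medians lie between -0.12 and -0.38, and 12 of 13 mitochondrially encoded points lie above 0 in this fit, although mt-Nd1, mt-Nd2, mt-Nd4, mt-Nd5, mt-Co1 and mt-Cytb turn to below 0 when GC and length trends fitted to all genes are removed.

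Reads of a gene can be assigned to it only where its sequence differs from that of other genes, and the members differed widely in this. Sharing is given below as the percent of a member's coding 50-mers (stretches of 50 bases) that also occur in another annotated gene. Copies that lie outside annotated genes are not counted. It was 0% for 51 of the 93 nuclear members. Among mitochondrially encoded members it was under 10% for mt-Nd1, mt-Nd2, mt-Nd5, mt-Nd6, mt-Cytb and mt-Atp8, between 51.0% and 62.2% for mt-Co1 and mt-Nd4, and between 99.0% and 100% for mt-Co2, mt-Co3, mt-Atp6, mt-Nd3 and mt-Nd4l. These bands were drawn after the values were seen. How reads that map to several places were counted is not given in the sources used here.

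Among mitochondrially encoded members with little shared sequence, the mRNAs of the main coding strand, the heavy-strand transcript, were modestly higher with AMI-5. The mRNA of mt-Cytb, the cytochrome b at the centre of complex III, stood at 2857, 2301 and 2424 CPM in control 1 to 3 and at 3801, 3553 and 3809 CPM with AMI-5. The groups did not overlap, and the log2 change was 0.56 (SE 0.08, adjusted p = 0.000102). The complex I subunit mRNA mt-Nd1 was at 1513, 1361 and 1325 CPM against 2308, 2075 and 2226 CPM, a log2 change of 0.65 (SE 0.07, adjusted p = 7.47e-06). All 3 AMI-5 libraries again lay above all controls.

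The complex I mRNA mt-Nd2 was at 1052, 935 and 935 CPM in the controls and 1312, 1303 and 1294 CPM with AMI-5 (log2 change 0.42, SE 0.06, adjusted p = 0.000117). For mt-Nd5, which encodes a proton-pumping subunit at the far end of the membrane arm of complex I, the values were 1839, 1682 and 1706 CPM against 2214, 2112 and 2301 CPM (0.34, SE 0.06, adjusted p = 0.000530). In both genes the groups stayed apart with a small gap. These 4 directions held under every scaling of the libraries tried. They did not hold once trends of fold change with GC content and length were taken out: over all genes the 4 log2 changes became -0.61 for mt-Nd5, -1.25 for mt-Cytb, -1.45 for mt-Nd1 and -1.57 for mt-Nd2. With trends taken from genes of unique sequence only, mt-Nd1 was at 0.16, mt-Cytb at 0.12, mt-Nd5 at -0.15 and mt-Nd2 at -0.16.

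The single mRNA of the other strand moved the opposite way. The complex I gene mt-Nd6 (chrM:13552-14070) is the only protein gene transcribed from the light-strand promoter. It stood at 151, 112 and 128 CPM in the controls and 97.1, 90.9 and 93.7 CPM with AMI-5, a log2 change of -0.47 (SE 0.09, adjusted p = 0.00156). Every AMI-5 library was below every control, and mt-Nd6 was lower under each alternative tried, at -3.28 with GC and length trends over all genes removed. Within a library the ratio of mt-Nd6 to the summed counts of mt-Nd1, mt-Nd2, mt-Nd5 and mt-Cytb does not depend on library scaling. The log2 of that ratio was -5.59, -5.80 and -5.64 in the controls and -6.63, -6.64 and -6.68 with AMI-5. The difference of -0.97 has an exact two-sided permutation p of 0.1, the smallest that 3 against 3 samples can give. The strand setting of the counting is not given in the sources used here, and without it reads of mt-Nd6 and of opposite-strand transcripts cannot be told apart.

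Among these 4 heavy-strand mRNAs the ratios to mt-Cytb differed by less than the ratio of mt-Nd6 did. Relative to mt-Cytb, the log2 ratio of mt-Nd5 differed by -0.22 and that of mt-Nd2 by -0.14 (exact permutation p = 0.1 each), and that of mt-Nd1 by 0.09 (exact permutation p = 0.3). The ribosomal RNAs lie upstream on the same strand. The 12S RNA mt-Rnr1 had 166 ± 20.7 CPM (SD, n = 3) in controls and 313 ± 42.9 with AMI-5, and the 16S RNA mt-Rnr2 had 319 ± 46.3 and 728 ± 66.0. Their log2 changes were 0.91 (SE 0.12) and 1.19 (SE 0.11), with adjusted p of 0.0004 and 2.8e-05. Relative to the same 4 mRNAs the summed ribosomal RNAs differed by 0.60 on the log2 scale (exact permutation p = 0.1). These 5 ratios were chosen after the values were seen.

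A further set of mitochondrially encoded mRNAs was close to 0 in the controls. The complex IV mRNA mt-Co2 had 21, 19 and 18 counts in control 1 to 3 and 4020, 3858 and 4323 counts with AMI-5. The complex IV mRNA mt-Co3 had 30, 17 and 20 counts against 4184, 3789 and 4386, and mt-Atp6, the a subunit of ATP synthase, had 30, 19 and 20 against 4531, 4149 and 4777. In CPM per kilobase the control means were 2.13 for mt-Co2, 2.16 for mt-Co3 and 2.55 for mt-Atp6, beside 1544 for mt-Co1, which is transcribed with them. With AMI-5 the corresponding means were 260, 230, 288 and 3568. The log2 changes were 6.93 (SE 0.09), 6.74 (SE 0.13) and 6.82 (SE 0.12), all with adjusted p at or below 4.03e-12. With GC and length trends over all genes removed they were 4.41, 4.39 and 4.28.

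The complex I mRNAs mt-Nd3 and mt-Nd4l showed the same pattern at fewer counts. mt-Nd3 had 1, 0 and 1 counts in the controls and 290, 284 and 279 with AMI-5, a ratio of rates of 248 with a 95% exact binomial (Clopper-Pearson) interval of 68.5 to 2053. mt-Nd4l had 3 counts in each control and 157, 195 and 183 with AMI-5. With the same trends removed the log2 change of mt-Nd3 went from 7.77 to 4.83 and that of mt-Nd4l from 5.07 to 1.98. Intervals cover counting error only. Together mt-Co2, mt-Co3, mt-Atp6, mt-Nd3 and mt-Nd4l gave 0.0606%, 0.0455% and 0.0499% of the mitochondrial mRNA counts in the controls and 3.44%, 3.35% and 3.41% with AMI-5.

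These 5 genes lie within a stretch of the mitochondrial genome that is also present in nuclear chromosome 1, where it is annotated as a row of unprocessed pseudogenes. The annotated copies matched the mitochondrial genes over the whole length of the copy with no mismatch for mt-Co2 (681 bases compared with Gm28661), mt-Atp6 (678 bases, Gm10925), mt-Co3 (783 bases, Gm28437) and mt-Nd4l (294 bases, Gm10222). mt-Nd3 and Gm28438 differed at 1 of 345 positions, T3C, counted from the first base of the mitochondrial gene. The first 150 bases of mt-Co3 (chrM:8607-8756, plus strand) and of its copy (chr1:24613822-24613971, minus strand, mm10) are printed in lower case because no letter differs between them:
mt-Co3: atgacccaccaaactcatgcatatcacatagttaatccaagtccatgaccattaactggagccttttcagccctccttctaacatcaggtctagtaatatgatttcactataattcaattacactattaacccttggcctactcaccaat
Gm28437: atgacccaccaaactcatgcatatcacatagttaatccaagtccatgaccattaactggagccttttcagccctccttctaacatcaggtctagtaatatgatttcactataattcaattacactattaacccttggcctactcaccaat

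The copies were near 0 in the controls as well. Gm28437, identical to mt-Co3, had 8, 11 and 6 counts in the controls and 2936, 2733 and 3135 with AMI-5. Gm28661, the copy of mt-Co2, had 7, 10 and 4 counts against 4538, 4319 and 4897, and Gm10925, the copy of mt-Atp6, had 13, 9 and 11 against 3663, 3457 and 3916. In the AMI-5 libraries both members of each of these pairs were abundant, and in the controls neither was. Summed with their copies, the log2 changes were 6.62 for mt-Co2, 7.06 for mt-Co3, 7.12 for mt-Atp6, 5.85 for mt-Nd4l and 4.18 for mt-Nd3. Gm28438, the copy of mt-Nd3, had 24, 15 and 4 counts in the controls, more than mt-Nd3 itself, and 178, 168 and 211 with AMI-5. Whether the way multi-mapping reads were counted has a part in these 5 differences was not tested.

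The mRNAs mt-Co1 and mt-Nd4 are covered by the chromosome 1 copies over only part of their length. mt-Co1, the catalytic subunit of complex IV, had 2742, 2199 and 2215 CPM in the controls and 5506, 5402 and 5630 CPM with AMI-5 (log2 change 1.21, SE 0.08, adjusted p = 2.27e-07). mt-Nd4 had 694, 674 and 665 CPM against 1344, 1222 and 1320 CPM (0.93, SE 0.06, adjusted p = 6.80e-08). The groups were wide apart in both, but with GC and length trends over all genes removed the values turned to -0.05 and -0.58. Their copies Gm29216 and Gm28439 went from 3 to 6 counts per control library to 3607 to 3863 and 1006 to 1238 counts. mt-Atp8, the remaining ATP synthase mRNA, had 1, 3 and 0 counts in the controls and 27, 26 and 46 with AMI-5. It shares no 50-mer with another annotated gene, but 21.1% of its bases overlap mt-Atp6, and its ratio of rates was 14.4 (95% exact interval 5.45 to 53.9). mt-Atp8 lies between mt-Co2 and mt-Atp6, and the chromosome 1 sequence between the copies of those genes was not compared with mt-Atp8. The log2 change of mt-Atp8, 3.76, was 0.54 and no longer passed (adjusted p = 0.574) with GC and length trends over all genes removed.

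**Figure D2:**
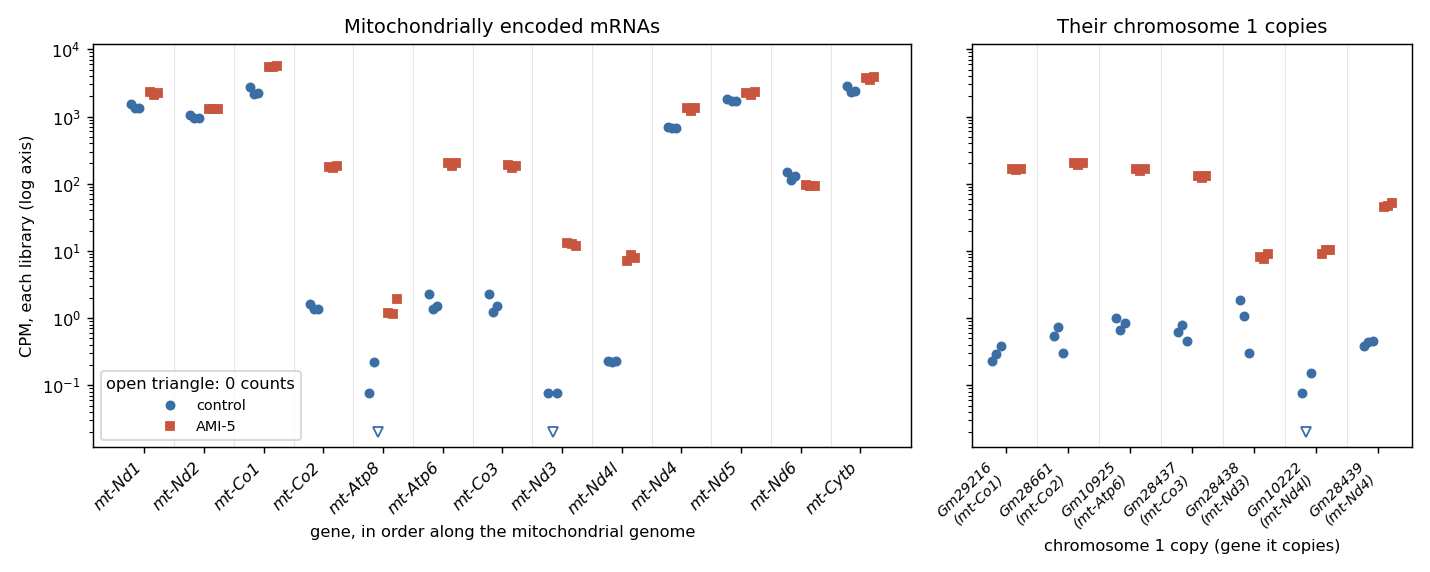
CPM of each library on a log axis for the 13 mitochondrially encoded mRNAs in order along the genome (left) and for 7 chromosome 1 copies with the gene each one copies in brackets (right). Circles are controls, squares AMI-5, and open triangles mark libraries with 0 counts. mt-Co2, mt-Atp6, mt-Co3, mt-Nd3, mt-Nd4l and their copies sit near the bottom in the controls only, mt-Nd6 is the one gene with lower AMI-5 values, and mt-Atp8 is low in both groups.

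Summed over genes, the genomes moved apart. The 13 mitochondrially encoded mRNAs made up 1.09%, 0.956% and 0.998% of counts in the controls and 1.66%, 1.601% and 1.65% with AMI-5. The 93 nuclear encoded members made up 0.888%, 0.856% and 0.866% in the controls and 0.728%, 0.677% and 0.669% with AMI-5. The ratio of mitochondrial to nuclear counts was 1.23, 1.12 and 1.15 in the controls and 2.28, 2.37 and 2.47 with AMI-5. No measure overlapped between groups, and each had an exact two-sided permutation p of 0.1, the smallest possible here. On the log2 scale the mitochondrial share differed by 0.69, the nuclear share by -0.33 and their ratio by 1.02. Over members with under 5% of exonic 50-mers shared, the same differences were 0.48, -0.32 and 0.79. The shares are not corrected for GC and length. Removing those trends over all genes turned the log2 changes of mt-Nd1, mt-Nd2, mt-Nd4, mt-Nd5, mt-Co1 and mt-Cytb to below 0.

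**Figure D3:**
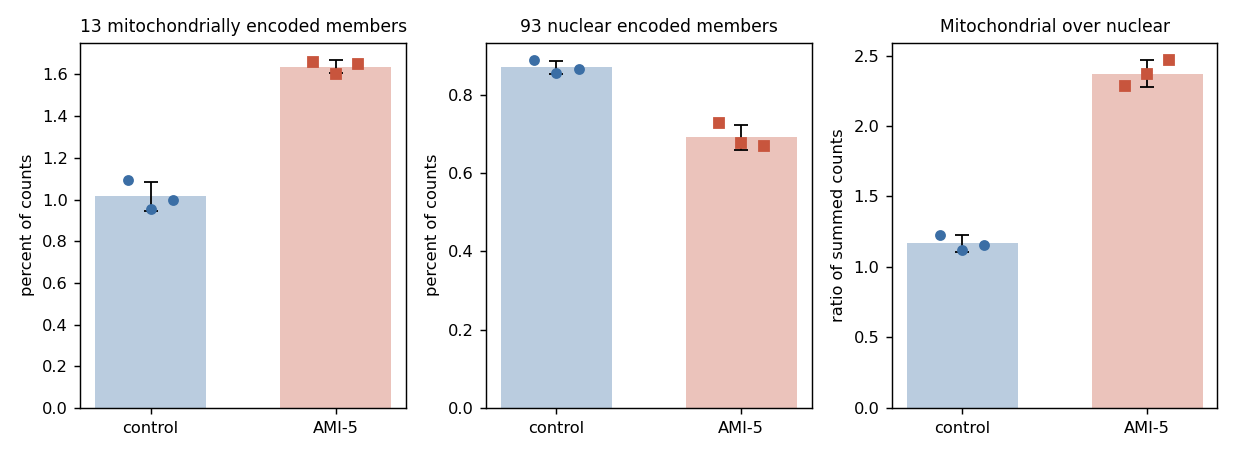
Share of all counts in each library for the 13 mitochondrially encoded (left) and 93 nuclear encoded members (middle) and their ratio (right). Bars are means of 3 libraries, error bars are SD and points are libraries. Shares are not corrected for GC and length. The mitochondrial share is higher and the nuclear share lower in all 3 AMI-5 libraries, and the ratio goes from 1.17 ± 0.0577 to 2.37 ± 0.0930.

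The shares were also summed by complex. Mitochondrially encoded complex I mRNAs went from 0.508% ± 0.0187 (SD, n = 3) of counts to 0.690% ± 0.0180, that of complex III (mt-Cytb) from 0.261% ± 0.0253 to 0.360% ± 0.00995, those of complex IV from 0.246% ± 0.0264 to 0.568% ± 0.00473, and those of complex V from 0.000189% to 0.0191%. Nuclear encoded complex I genes went from 0.240% ± 0.00553 to 0.198% ± 0.0106, complex II from 0.0546% ± 0.00130 to 0.0474% ± 0.00174, and complex III from 0.0916% ± 0.00277 to 0.0687% ± 0.00253. Nuclear encoded complex IV genes went from 0.133% ± 0.00398 to 0.0965% ± 0.00454, and those of complex V, the largest nuclear difference in share, from 0.341% ± 0.00435 to 0.271% ± 0.0123. Per kilobase the most abundant members in controls were mt-Cytb (2209 CPM per kilobase), mt-Co1 (1544) and mt-Nd1 (1462). The highest nuclear encoded members were Atp5a1 (266) and Atp5b (247), the catalytic subunits of ATP synthase, and Cox4i1 (254).

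Complex I is the largest of the complexes, with 38 nuclear encoded members tested, of which 22 were lower, 5 higher and 11 did not pass. Among all tested genes 26.6% were lower and 27.5% higher. Sorting was by symbol, so the 38 and the complex I medians and shares include Ndufa4 (lower) and its paralog Ndufa4l2 (higher). Ndufa4 is now counted with complex IV, as described below. Of the 7 nuclear encoded core subunits of complex I, which carry the flavin and iron-sulfur clusters, 4 were lower (Ndufs3, Ndufs7, Ndufs8 and Ndufv1), 1 was higher and 2 did not pass. The higher one, Ndufv2, was at 0.27, but at -0.43 and -0.03 with GC and length trends over all and over unique-sequence genes removed. Of the lower ones Ndufv1 turned to 0.10 with the trends over all genes removed and Ndufs7 to 0.05 with those over unique-sequence genes. Of 29 accessory subunits, which surround the core, 17 were lower and 3 higher (median -0.28). Some of the lower calls did not hold with near copies added. Ndufa12 then went from -0.33 to 1.10 (adjusted p = 9.2e-07) and Ndufab1 from -0.29 to 0.54 (adjusted p = 8.2e-05). Ndufs5 went from -0.80 to 0.21 (adjusted p = 0.108). Sorting into roles followed textbook knowledge and was done after the values were seen.

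The smallest p among nuclear complex I members belonged to Ndufs3, a core subunit of the peripheral arm, at 49.3, 48.5 and 42.5 CPM in controls and 26.7, 26.6 and 26.3 CPM with AMI-5. The log2 change was -0.82 (SE 0.07, adjusted p = 2.27e-06). Ndufs3 shares 47.8% of its coding 50-mers, and its processed pseudogene Gm12251 went from 10, 10 and 12 counts to 569, 491 and 494. Summed with that copy the log2 change was 0.05 (adjusted p = 0.578), and neither direction was called. Ndufb7, an accessory subunit with no shared coding sequence, was at 75.1, 70.3 and 68.7 CPM against 49.2, 46.8 and 47.6 CPM (-0.58, SE 0.06, adjusted p = 6.48e-06). Its groups did not overlap, and it was lower under every alternative.

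Ndufa11, an accessory subunit of the membrane arm, was at 50.7, 49.1 and 46.4 CPM in controls and 33.0, 31.2 and 31.5 CPM with AMI-5 (-0.61, SE 0.07, adjusted p = 9.49e-06). The 2 nuclear complex I members with the highest level per kilobase did not follow. Ndufa6 was at 92.7, 76.9 and 74.9 CPM against 82.3, 75.3 and 77.2 CPM, a log2 change of -0.06 (SE 0.08, adjusted p = 0.561), and the groups overlapped, but it was at -2.26 (adjusted p = 3.52e-12) with GC and length trends over all genes removed. Ndufb9 was at 87.6, 87.8 and 77.5 CPM against 104, 90.6 and 98.7 CPM (0.21, SE 0.07, adjusted p = 0.0233). It no longer passed with totals as the only scaling (0.12), without control 3 (0.16) or without AMI-5 1 (0.18), and was at -1.77 with GC and length trends over all genes removed.

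The assembly factors of complex I, which help to build it but are not part of the finished enzyme, were mostly not called: 6 of 8 Ndufaf genes did not pass, 1 was higher and 1 lower. That holds only without correction for GC and length: with trends over all genes removed 7 of the 8 were lower and 1, Ndufaf4, was higher (0.26), and with trends over unique-sequence genes 2 were lower and 1 higher. Ndufaf4 rose from 13.8, 13.5 and 14.2 CPM to 21.8, 20.5 and 21.9 CPM (0.63, SE 0.09, adjusted p = 6.66e-05), with no overlap. Ndufaf1 went from 14.8, 14.0 and 13.4 CPM to 13.04, 10.5 and 10.2 CPM (-0.32, SE 0.12, adjusted p = 0.0354), a call that was lost under 9 of 20 alternatives, among them leaving out control 1 (adjusted p = 0.0993), control 2 (0.0729), AMI-5 2 (0.143) or AMI-5 3 (0.159). Ndufaf8 was at -0.25 (adjusted p = 0.104) and Ndufaf2 at -0.09 (adjusted p = 0.509), and their groups overlapped. For Ndufaf2, 65.7% of exonic bases lie opposite an exon of another gene. In the wider list of complex I assembly genes 2 of 18 were higher and 2 lower, beside 27.5% and 26.6% of all tested genes.

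Complex II, succinate dehydrogenase, had the median nearest 0 of the complexes, -0.14. The membrane anchors Sdhc and Sdhd were lower and the catalytic subunits Sdha and Sdhb did not pass. Sdhc was at 123, 109 and 113 CPM in controls and 101, 94.7 and 98.3 CPM with AMI-5 (-0.23, SE 0.06, adjusted p = 0.00832). Sdhd was at 115, 106 and 114 CPM against 104, 90.7 and 95 CPM (-0.21, SE 0.07, adjusted p = 0.0165), and this call was lost under 5 of 20 alternatives, among them leaving out control 1 (adjusted p = 0.0535), AMI-5 2 (0.105) or AMI-5 3 (0.0814). Sdha, the flavoprotein, was at 230, 226 and 225 CPM against 221, 214 and 218 CPM (-0.06, SE 0.05, adjusted p = 0.351). Its AMI-5 libraries were all slightly below the controls without passing the test.

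In complex III 6 of 8 nuclear encoded members were lower and none was higher, beside 26.6% and 27.5% of all tested genes. Its mitochondrially encoded subunit mt-Cytb was higher, but only without correction for GC and length. It was at -1.25 with trends over all genes removed and at 0.12 (adjusted p = 0.14) with trends over unique-sequence genes. The small subunits Uqcr10 and Uqcr11 led. Uqcr10 was at 87.3, 72.0 and 73.1 CPM in controls and 48.7, 43.3 and 44.2 CPM with AMI-5 (-0.77, SE 0.08, adjusted p = 9.14e-06). Uqcr11 was at 73.1, 63.8 and 65.2 CPM against 41.7, 37.1 and 38.4 CPM (-0.78, SE 0.07, adjusted p = 2.14e-06). In both the highest AMI-5 library was well under the lowest control. Uqcrh, the hinge protein, was at 115, 110 and 110 CPM against 88.9, 83.8 and 91.2 CPM (-0.35, SE 0.06, adjusted p = 0.000301). Uqcrc1 was at -0.32, the Rieske iron-sulfur protein Uqcrfs1 at -0.17 and Uqcrc2, which did not pass, at -0.11. Cytochrome c1 (Cyc1), whose symbol the pattern does not match, was at -0.41. The small subunit Uqcrb, which shares 72.9% of its coding 50-mers, did not pass (-0.09). With its 2 copies added it was higher, at 0.52 (adjusted p = 5.8e-05).

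Complex IV, cytochrome c oxidase, had the lowest median of the nuclear groups, -0.38, although with trends over unique-sequence genes removed that of complex III was lower (-0.48 against -0.38). Of 14 tested members 11 were lower and 2 higher, beside 26.6% and 27.5% of all tested genes. Among its 10 ubiquitous subunits 9 were lower and only Cox7c was higher. Cox5b was at 75.9, 71.3 and 63.0 CPM in controls and 28.6, 25.9 and 26.6 CPM with AMI-5, a log2 change of -1.38 (SE 0.08, adjusted p = 2.73e-08). It shares 61.5% of its coding 50-mers. Summed with its copy Gm11273, which went from 16, 11 and 13 counts to 449, 501 and 513, its log2 change was -0.56 (adjusted p = 3.8e-05).

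Cox6b1, with no shared coding sequence, was at 151, 138 and 138 CPM in controls and 100, 90.0 and 94.8 CPM with AMI-5 (-0.58, SE 0.06, adjusted p = 1.1e-05). Cox4i1, the ubiquitous form of the largest nuclear encoded subunit, was at 418, 384 and 381 CPM against 330, 306 and 306 CPM (-0.33, SE 0.06, adjusted p = 0.00063). Cox8a was at 104, 100 and 126 CPM against 89.3, 86.3 and 83.8 CPM (-0.35, SE 0.08, adjusted p = 0.0039). No library of the groups overlapped in any of the 3 genes. Cox8a did not pass once GC and length trends over unique-sequence genes were removed (-0.15, adjusted p = 0.371).

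ATP synthase had 9 of 17 nuclear encoded members lower and 4 higher, beside 26.6% and 27.5% of all tested genes. The small membrane subunits Atp5k and Atp5j2, which sit at the dimer interface, had the lowest values. Atp5k was at 65.8, 62.4 and 59.1 CPM in controls and 30.6, 29.1 and 28.5 CPM with AMI-5 (-1.09, SE 0.07, adjusted p = 5.17e-08). Atp5j2 was at 138, 127 and 130 CPM against 81.2, 70.6 and 76.7 CPM (-0.79, SE 0.07, adjusted p = 1.07e-06). In both the groups lay far apart and the direction and call held under every alternative. Of the other small membrane subunits, Atp5l was at 0.00 and Atp5mpl at -0.01 and neither passed. Atp5l shares 100% of its coding 50-mers and was at 0.85 (adjusted p = 0.0051) with its 5 copies added. Atp5mpl was at -2.54 (adjusted p = 4.0e-13) with GC and length trends over all genes removed.

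The catalytic head changed little. Atp5b, the catalytic beta subunit, was at 1073, 1054 and 1015 CPM in controls and 946, 871 and 875 CPM with AMI-5 (-0.22, SE 0.06, adjusted p = 0.00598), a call lost without AMI-5 2 (adjusted p = 0.0626). Atp5a1, the alpha subunit, was at 868, 832 and 803 CPM against 786, 739 and 755 CPM (-0.13, SE 0.06, adjusted p = 0.0605). Its groups were apart but close, and it did not pass. It passed as lower in 4 of the alternatives, without control 3 (adjusted p = 0.0396), with totals as the only scaling (-0.23), with limma voom and with a replicate block, and as higher (0.15, adjusted p = 0.0393) with GC and length trends over all genes removed. In the peripheral stalk 3 of 4 subunits were lower, but this did not hold with near copies added. Atp5h then went from -0.26 to 0.81 (adjusted p = 8.6e-07) and Atp5f1 from -0.04 to 0.22 (adjusted p = 0.0097). Atp5j, for which no near copy was added, stayed at -0.56. Atp5o was at 149, 147 and 138 CPM against 97.1, 85.4 and 92.0 CPM (-0.66, SE 0.06, adjusted p = 3.6e-06), but with its copy Gm5436 added it was at -0.10 (adjusted p = 0.196). Of its exonic bases 35.6% also lie opposite exons of other genes.

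The c-ring genes differ in shared sequence and in direction. Atp5g1, Atp5g2 and Atp5g3 encode the same mature c subunit. Atp5g3, with no shared coding 50-mers, was at 285, 258 and 256 CPM in controls and 234, 206 and 212 CPM with AMI-5 (-0.30, SE 0.07, adjusted p = 0.0027). Atp5g1, with 99.7% shared, was at 4.49, 5.17 and 5.75 CPM against 17.1, 13.3 and 12.9 CPM (1.49, SE 0.15, adjusted p = 5.4e-06). Atp5g2, with 100% shared, was at 1.63, 2.91 and 1.82 CPM against 3.72, 3.96 and 3.97 CPM (0.87, SE 0.23, adjusted p = 0.0067).

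**Figure D4:**
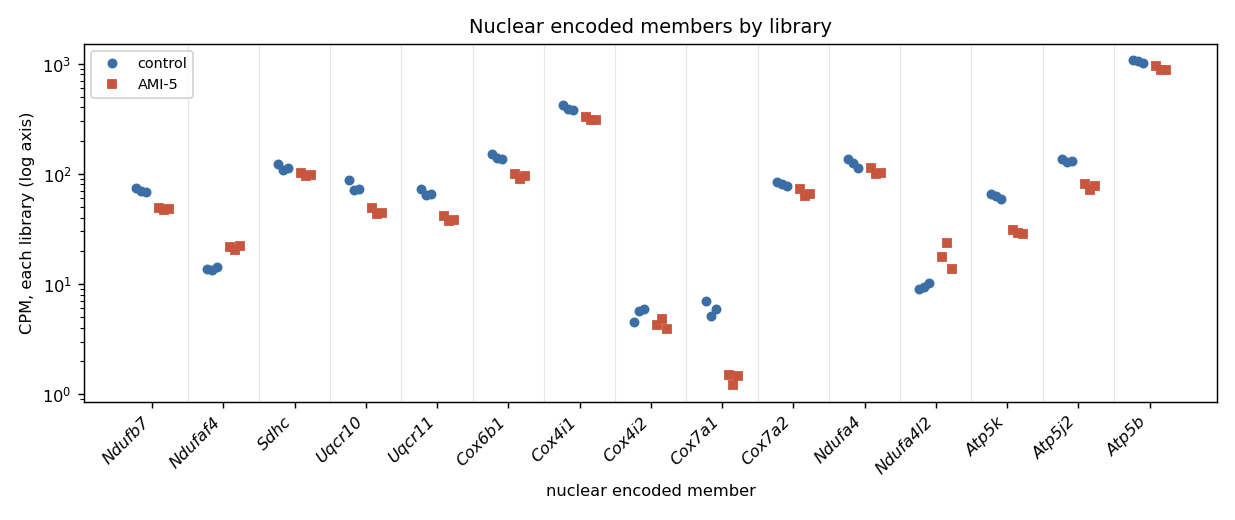
CPM of each library on a log axis for 15 nuclear encoded members, circles for controls and squares for AMI-5. Atp5k, Cox7a1 and Uqcr10 show the clearest gaps downwards, Ndufaf4 and Ndufa4l2 lie higher with AMI-5, and the groups of Cox4i2 overlap; Ndufa4l2 turns to -0.14 with GC and length trends over all genes removed.

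Several complex IV subunits exist as pairs of a ubiquitous and a tissue or oxygen dependent form, and the ratio within a pair does not depend on library depth. Cox7a2l was near Cox7a2 in level. In the other pairs the rarer form was at most 23.9% of the ubiquitous one in any library, reached by Ndufa4l2. Cox7a1, the heart and skeletal muscle form, had 91, 70 and 79 counts in the controls and 33, 27 and 35 with AMI-5, or 7.04, 5.09 and 5.98 CPM against 1.48, 1.20 and 1.48 CPM. Its log2 change was -2.12 (SE 0.20, adjusted p = 3.63e-06), the lowest value among all members. Cox7a1 stood at 8.29%, 6.24% and 7.74% of Cox7a2 in the controls and at 2.04%, 1.89% and 2.24% with AMI-5. The log2 ratio differed by -1.83 with no overlap (exact permutation p = 0.1, adjusted over 6 pairs 0.15).

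Summed striated muscle and heart markers were 8.59 to 28.0 CPM in the controls and 8.16 to 14.3 CPM with AMI-5. The 5 tested had a median log2 change of -1.47, but 0 passed, and Ckmt2 was at 0 throughout. Of 8 smooth muscle and pericyte markers 5 were lower, with sums of 426 to 459 CPM against 329 to 374 CPM, Acta2 at -0.49 (adjusted p = 0.0003) and Des at -0.32 (adjusted p = 0.0014). Over all tested genes 26.6% were lower. The part of these markers in the value of Cox7a1 was not tested.

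Ndufa4 was first assigned to complex I and is now counted with complex IV, and Ndufa4l2 is its paralog, known as a target of hypoxia signalling. Ndufa4 was at 136, 126 and 114 CPM in controls and 112, 99.0 and 103 CPM with AMI-5 (-0.26, SE 0.07, adjusted p = 0.0108), a call lost without AMI-5 2 (adjusted p = 0.0553) or AMI-5 3 (0.0507). Ndufa4l2 went from 9.05, 9.46 and 10.1 CPM to 17.6, 23.7 and 13.8 CPM (0.94, SE 0.19, adjusted p = 0.00225). It was higher in all 3 AMI-5 libraries, which varied more among themselves than the controls did. The log2 ratio of Ndufa4l2 to Ndufa4 was -3.91, -3.73 and -3.49 against -2.67, -2.06 and -2.89, a difference of 1.16 (exact permutation p = 0.1, adjusted 0.15). The fold change of Ndufa4l2 itself turned to -0.14 with GC and length trends over all genes removed, and was 1.19 with trends over unique-sequence genes.

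The other oxygen dependent form, Cox4i2, did not pass, although it was at -2.02 (adjusted p = 3.60e-07) with GC and length trends over all genes removed. It was at 4.57, 5.68 and 5.98 CPM in controls and 4.21, 4.80 and 3.88 CPM with AMI-5 (-0.33, SE 0.17, adjusted p = 0.119). Its ratio to Cox4i1 was 1.09%, 1.48% and 1.57% against 1.28%, 1.57% and 1.27%, and the groups overlapped (log2 difference -0.002, exact permutation p = 0.9). Cox6b2, the testis form, was at 8.20, 10.5 and 9.23 CPM against 5.65, 5.34 and 4.85 CPM (-0.82, SE 0.14, adjusted p = 0.00042). Relative to Cox6b1, which was also lower, it differed by -0.23 (exact permutation p = 0.3, adjusted 0.36).

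Cox7a2l, which joins complexes III and IV into supercomplexes, was one of the 2 higher complex IV members, at 79.8, 75.8 and 68.5 CPM in controls and 109, 94.7 and 99.4 CPM with AMI-5 (0.43, SE 0.07, adjusted p = 0.00034). It turned to -0.997 with GC and length trends over all genes removed. Its log2 ratio to Cox7a2 was -0.09, -0.11 and -0.17 against 0.58, 0.58 and 0.59, a difference of 0.71 with little spread (exact permutation p = 0.1, adjusted 0.15). Cox7a2l shares 54.1% of its coding 50-mers, chiefly with the pseudogene Gm6969, and was at 0.54 with that copy added.

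The 4 members not tested are tissue forms of complex IV. The muscle form Cox6a2 had 0, 1 and 1 counts in the controls and 4, 5 and 4 with AMI-5, a ratio of rates of 3.78 (95% exact interval 0.857 to 34.5). Cox7b2 had 0 counts in the controls and 1, 2 and 4 with AMI-5. The brown fat and muscle form Cox8b and the testis form Cox8c had 0 counts in all 6 libraries.

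The nuclear encoded members also differed by how much sequence they share. Of 47 tested members with no shared coding 50-mers, 26 were lower and 4 higher (median -0.21). Of 27 members sharing some but under 50%, 19 were lower and 2 higher (median -0.39). Of 15 members sharing 50% or more, 6 were lower and 6 higher (median -0.04). The order of the medians turned around with GC and length trends over unique-sequence genes removed, where the members sharing 50% or more were 4 higher and 8 lower (median -0.36) and those sharing none 3 higher and 25 lower (median -0.20). With trends over all genes removed the order held, but the counts were 2 higher and 10 lower (median -0.47) and 4 higher and 39 lower (median -1.35). Over genes of unique sequence 30.3% were lower and 19.6% higher in the same fit, and 25% and 22.9% when those genes were fitted alone. The members sharing 95% or more were also the lowest, with a control median of 1.75 CPM per kilobase against 47.3 for members sharing none. Across the 89 tested nuclear members the log2 change and the percent shared had Pearson's r of 0.28 and Spearman's rho of -0.003, which rest on genes that are not independent replicates.

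The coding sequences of 3 complex IV subunits show the range, with capitals for bases inside a 50-mer found in another annotated gene. They are spliced coding sequences in transcript direction from the GENCODE M21 annotation of mm10, the first 300 bases for Cox5b. Cox7c (within chr13:86044816-86046904, minus strand) is in capitals throughout, Cox5b (chr1:36691484-36693681, plus strand) except for 1 base and 1 short run, and Cox8a (chr19:7215158-7217616, minus strand) has none:
Cox7c: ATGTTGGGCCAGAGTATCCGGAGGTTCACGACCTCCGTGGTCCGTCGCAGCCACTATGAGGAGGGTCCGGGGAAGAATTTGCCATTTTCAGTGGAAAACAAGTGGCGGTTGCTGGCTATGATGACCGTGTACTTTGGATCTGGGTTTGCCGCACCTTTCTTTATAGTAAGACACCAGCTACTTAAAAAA
Cox5b: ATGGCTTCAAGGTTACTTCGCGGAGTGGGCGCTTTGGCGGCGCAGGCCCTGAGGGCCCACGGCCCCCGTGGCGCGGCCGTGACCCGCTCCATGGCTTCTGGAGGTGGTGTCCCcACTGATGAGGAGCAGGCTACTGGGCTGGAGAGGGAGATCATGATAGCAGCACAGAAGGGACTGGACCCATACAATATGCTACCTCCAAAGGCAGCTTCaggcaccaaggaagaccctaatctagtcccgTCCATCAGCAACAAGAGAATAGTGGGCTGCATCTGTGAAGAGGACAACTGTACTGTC
Cox8a: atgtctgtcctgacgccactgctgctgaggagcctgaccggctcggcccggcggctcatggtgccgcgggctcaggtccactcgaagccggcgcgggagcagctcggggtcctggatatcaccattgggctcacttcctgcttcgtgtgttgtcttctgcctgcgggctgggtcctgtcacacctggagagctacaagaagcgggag

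Cox7c, whose whole coding sequence recurs in pseudogenes, was at 5.73, 5.53 and 6.13 CPM in controls and 7.62, 7.92 and 7.30 CPM with AMI-5 (0.39, SE 0.13, adjusted p = 0.0231). Its pseudogene Gm12338 went from 17, 13 and 18 counts to 595, 597 and 572, and the sum of Cox7c and its 2 copies was at 2.20. With GC and length trends removed Cox7c itself was at -1.45 (all genes) and -0.08 (unique-sequence genes). In all, 15 nuclear encoded members shared at least 100 50-mers with near copies. Of 22 pseudogene copies of such members 19 were tested and 19 were higher with AMI-5, where 27.5% of all tested genes were. Some copies, such as Gm10231 with 0 counts in every control, passed the count filter only through the AMI-5 libraries. For those the direction was fixed by the filter. When each member was summed with its copies, 18 of 89 nuclear members were higher and 45 lower, and of the 15 sharing at least 50% 12 were higher and 2 lower. The near copies and the bands were chosen after the values were seen, and the part of read assignment in these values was not tested.

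**Figure D5:**
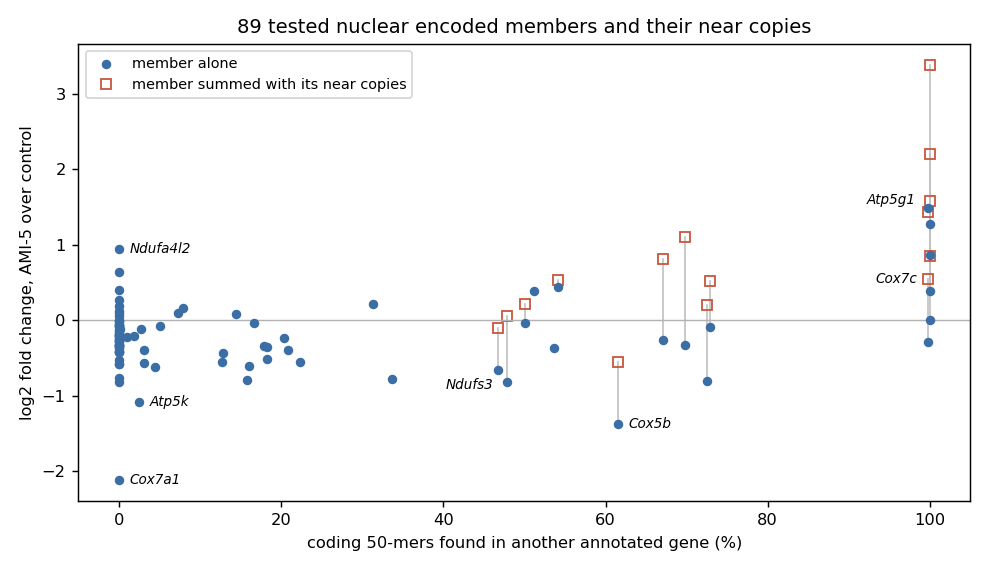
Log2 fold change, AMI-5 over control, of 89 tested nuclear encoded members against the percent of coding 50-mers found in another annotated gene. Blue points are members alone and open red squares are members summed with their near copies, joined by grey lines. Summing moves Ndufs3 from -0.82 to 0.05 and Cox5b from -1.38 to -0.56, and Cox7a1 and Atp5k at the left have no near copies.

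Promoter windows of 250 bases before to 50 bases after the start were found in the RefSeq table (GRCm38.p6) for 74 of 93 nuclear encoded members, in 79 windows. The letters of 5 motifs were searched on both strands. The ETS core CCGGAAG, bound by the GABP factors, was in 22.8% of member windows and in 8.86% of all 32851 windows. The NRF-1 letters GCATGCG were in 16.5% and 3.58%, and the YY1 letters AAGATGG in 13.9% and 6.34%. The hypoxia element core ACGTG was in 22.8% and 19.6%, and CCAAT in 43.0% and 37.4%. Of 18 members with the ETS letters 14 were lower and 0 higher, and of 54 tested members without them 32 were lower and 9 higher. Of 13 members with the NRF-1 letters 7 were lower and 2 higher, and of 59 without them 39 and 7. For YY1 the counts were 7 lower and 1 higher of 11 with the letters and 39 and 8 of 61 without. For the hypoxia core they were 10 and 2 of 16 and 36 and 7 of 56, and for CCAAT 19 and 4 of 32 and 27 and 5 of 40. Among all tested genes 26.6% were lower and 27.5% higher. No test was run on the motif counts.

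The promoters of Uqcr11 (chr10:80406772-80407071, minus strand) and Atp5k (chr5:108434350-108434649, minus strand) are shown because these members were among the lowest and hold both motifs. They were picked after the values were seen. Capitals mark the letters of the ETS core or of NRF-1 on either strand, and the run CGCATGCG holds the NRF-1 letters once on each strand:
Uqcr11: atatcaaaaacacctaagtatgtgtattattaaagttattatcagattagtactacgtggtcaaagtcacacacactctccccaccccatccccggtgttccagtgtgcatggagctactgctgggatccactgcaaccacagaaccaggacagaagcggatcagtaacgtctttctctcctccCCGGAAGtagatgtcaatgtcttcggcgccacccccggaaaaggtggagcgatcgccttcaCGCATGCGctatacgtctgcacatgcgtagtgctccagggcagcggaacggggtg
Atp5k: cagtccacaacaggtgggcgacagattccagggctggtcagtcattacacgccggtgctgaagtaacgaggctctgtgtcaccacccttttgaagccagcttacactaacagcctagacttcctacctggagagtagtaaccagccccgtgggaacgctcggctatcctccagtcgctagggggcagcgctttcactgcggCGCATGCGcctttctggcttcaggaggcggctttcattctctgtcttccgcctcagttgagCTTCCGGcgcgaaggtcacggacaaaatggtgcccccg

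Of the regulators known to act on respiratory chain genes, 7 of 10 tested were lower and 2 higher, beside 26.6% and 27.5% of all tested genes. Gabpa, the DNA-binding GABP subunit, was at 69.3 ± 4.16 CPM (SD, n = 3) in controls and 81.4 ± 1.57 with AMI-5 (log2 change 0.23, SE 0.06, adjusted p = 0.00631). Its partner Gabpb1 was at 28.6 ± 2.68 and 33.7 ± 1.38 (0.24, SE 0.08, adjusted p = 0.0289). The orphan nuclear receptor Esrra went from 34.4 ± 1.45 to 23.7 ± 0.385 (-0.54, SE 0.07, adjusted p = 5.7e-05). The coactivator Pprc1 went from 101 ± 6.11 to 73.2 ± 2.96 (-0.46, SE 0.06, adjusted p = 6.9e-05). Nrf1 at -0.26 and Yy1 at -0.21 were also lower.

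Among 26 tested genes of mitochondrial RNA synthesis and processing, 8 were higher and 5 lower, beside 27.5% and 26.6% of all tested genes. Polrmt, the mitochondrial RNA polymerase, fell from 45.8 ± 4.31 CPM to 30.5 ± 1.61 (-0.59, SE 0.08, adjusted p = 7.6e-05). Mtpap, which adds poly(A) to mitochondrial mRNAs, rose from 21.4 ± 0.519 to 29.9 ± 0.738 (0.48, SE 0.07, adjusted p = 0.000171), and the exonuclease Rexo2 rose from 45.6 ± 1.91 to 57.3 ± 2.21 (0.33, SE 0.06, adjusted p = 0.000621). Tfam, which packages and transcribes mitochondrial DNA, was at 52.0 ± 1.87 and 53.0 ± 1.67 (0.03, SE 0.06, adjusted p = 0.737). Of 9 genes that copy and maintain mitochondrial DNA 2 were higher and 3 lower, with the helicase Twnk at -0.39 and the single-strand binding protein Ssbp1 at -0.51.

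The assembly lists of the other complexes were mixed, beside 27.5% higher and 26.6% lower over all tested genes. For complex III and cytochrome c, 2 of 9 tested genes were higher and 2 lower: cytochrome c1, encoded by Cyc1, went from 132 ± 2.90 CPM to 99.8 ± 5.45 (-0.41, SE 0.06, adjusted p = 0.000105), while Lyrm7, which matures the Rieske protein, went from 0.726 ± 0.236 to 6.88 ± 1.04 (3.23, SE 0.25, adjusted p = 5.4e-07). For complex IV 2 of 21 were higher and 5 lower, with the copper chaperone Cox17 at 0.89 and Cox11 at -0.86. Cox11 shares 43.2% of its exonic 50-mers with other genes. For complex V 1 of 6 was higher and 3 were lower, among them Atpif1, the inhibitor of ATP hydrolysis, at -0.64 (SE 0.07, adjusted p = 6.7e-06). For complex II 2 of 4 were higher. In a list of supercomplex and inner membrane scaffold genes 1 of 8 was higher and 3 lower, and 1 of the lower, Scaf1, is an RNA processing gene that only shares its symbol with a name used for Cox7a2l.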

How the data were processed

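RNA-seq read counts per gene were deposited by the authors as 1 table of whole-number counts for 6 libraries. The tools named, per the submitters' processing notes, were GSNAP, featureCounts 1.6.2 and bcl2fastq 2.19.1, with the mm10 build. Neither the strand setting nor the handling of multi-mapping reads is given there. The table had 49763 entries, of which 92 spike-in rows were left out. Columns were assigned to samples by their titles.

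Genes were filtered with edgeR's filterByExpr (minimum count 10), scaled by TMM and tested with edgeR 4.0.16 (quasi-likelihood test, R 4.3.3) over 17519 genes, without a replicate block. Benjamini-Hochberg adjusted p under 0.05 was a call. Shares and ratios were compared with exact two-sided permutation tests (SciPy 1.17.1), ratios after adding 0.5 to each count. Alternatives used other scalings and filters, DESeq2 1.42.0, limma 3.58.1 voom, a replicate block, removal of GC and length trends, and each library left out. The script was tested on simulated data. Shared 50-mers came from GENCODE M21, promoters from RefSeq.

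Per complex, the 3 nuclear encoded genes with the smallest p and the 2 with the highest level per kilobase were named, beside all 13 mitochondrially encoded genes and the isoform pairs. Other named genes, the roles, bands of shared sequence, near copies, mitochondrial ratios and printed sequences were chosen after the values were seen. The members and lists were chosen with earlier results of these data known.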

Additional observations from a re-analysis of the deposited data

How the results depend on the processing

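The counts of 24 higher and 52 lower members ranged from 21 to 25 and from 41 to 53 when 1 library was left out. With GC and length trends over all genes removed they were 11 and 78, with unique-sequence genes only 9 and 28, and with members that share no coding 50-mers (an alternative chosen after seeing the data) 7 and 27, where fewer members were counted. Replicate numbers were shared between groups, but deviations of same-numbered libraries correlated at -0.06, -0.04 and -0.05, so they do not pair the samples, and no library correlated best with its own number. A fit with a replicate block gave 24 higher and 53 lower.

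The log2 difference of the mitochondrial share was 0.85 and that of the nuclear share -0.18 with acinar enzymes out of the denominator. Over members with under 5% shared sequence the mitochondrial share differed by 0.48 and the ratio by 0.79, and with near copies added (chosen after seeing the data) the nuclear share differed by -0.27. The Cox4i2 to Cox4i1 ratio lay between -0.16 and 0.10 when 1 library was left out.

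Among the 46 genes followed through the alternatives, these values changed sign with trends over all genes removed: Atp5a1 to 0.15, Cox7a2l to -0.997, Ndufa4l2 to -0.14, Ndufb9 to -1.77, mt-Co1 to -0.0475, mt-Cytb to -1.25, mt-Nd1 to -1.45, mt-Nd2 to -1.57, mt-Nd4 to -0.58 and mt-Nd5 to -0.61. Other members changed sign too, among them Cox7c to -1.45, Ndufv2 to -0.43, Atp5s to -0.93, Atp5c1 to -0.28, Ndufb4 to -0.03 and Ndufv1 to 0.10. With trends over unique-sequence genes mt-Nd2 was at -0.16 and mt-Nd5 at -0.15, and the same with the replicate block added (-0.16 and -0.15). With its copy added Ndufs3 was at 0.0501. Outside the 46 genes, Ndufa12, Ndufab1, Ndufs5, Atp5h, Atp5f1, Atp5l and Uqcrb also went from below to above 0 with near copies added. The cause was not tested. Of 900 values for 46 genes, 847 kept direction and side of the threshold. The lower depth of the controls limits the low members, such as Cox6a2, most.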

Other observations

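Other mitochondrial pathways were mixed. Over all tested genes 27.5% were called higher and 26.6% lower. Of 17 genes of the citric acid cycle and pyruvate dehydrogenase 5 were higher and 7 lower (edgeR's quasi-likelihood test). Pdk1, a kinase that inhibits pyruvate dehydrogenase, rose from 76.5 ± 8.04 CPM (SD, n = 3) to 152 ± 17.2, a log2 change of 0.99 (SE 0.10, adjusted p = 1.21e-05). Pdhb, a subunit of that dehydrogenase, fell from 71.2 ± 2.29 to 50.2 ± 4.58 CPM (-0.50, SE 0.07, adjusted p = 8.84e-05). Of 13 coenzyme Q genes 2 were higher and 1 lower, with Coq2 at 0.42 and Coq6 at -0.38. Of 8 carriers and channels of the mitochondrial membranes 2 were higher and 3 lower, with Vdac3 at 0.44 and the ADP/ATP carrier Slc25a5 at -0.36. Slc25a5 shares 33.8% of its exonic 50-mers, and its near copies were not added. Of 6 tested mitochondrial ribosomal and transfer RNAs 4 were higher.

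Markers of cell types in the tissue moved too, beside 27.5% higher and 26.6% lower over all tested genes. Of 35 acinar enzyme genes 30 were higher, of 10 leukocyte genes 6, of 7 erythroid genes 5 with 2 lower, and of 8 mesenchyme genes 3 with 2 lower. Of 11 endocrine genes 1 was higher and 3 lower, and of 6 endothelial genes 1 was lower. The 1 tested brown fat marker did not pass. Their part in the values of the respiratory chain genes was not tested.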
